A study of Mus musculus with 6 samples.

Results

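The 10 genes described here code for the AP-1 proteins and for immediate early transcription factors that are read with them: *Fos*, *Fosb*, *Fosl1*, *Fosl2*, *Jun*, *Junb*, *Jund*, *Atf3*, *Egr1* and *Myc*. They were taken as a fixed list of names, out of 19938 genes with a single symbol on the array, and each had 1 probe set of its own. Their transcripts were measured in villi from the intestine of mice at 5 days of age, in 3 control and 3 mutant replicates, with 1 Affymetrix whole-transcript array per replicate. Control pups carried both floxed alleles of *Trpm7* (*Trpm7* fl/fl), and mutant pups carried the same alleles together with *Villin1-Cre*, a transgene that drives Cre in epithelial cells along the whole intestine. *Trpm7*, the gene of a cation channel fused to a kinase, was therefore deleted in the epithelium and not in the stroma, muscle or blood cells of a villus. The labels name C57BL/6 as the genetic background of all 6 samples, and the floxed and Cre lines that were crossed came from different strains. Intestines were placed in RNAlater, and villi were then detached mechanically and spun down before the RNA was extracted. Values are log2 signals as the authors deposited them, so a difference of 1 is a 2-fold ratio of signals. The words rose and fell are kept for genes with a limma p of at most 0.05 once adjusted over all 30177 probe sets.

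AP-1 is a dimer. Proteins of the Fos family (Fos, Fosb and the Fos-related antigens coded by *Fosl1* and *Fosl2*) cannot pair with themselves and bind DNA as partners of Jun proteins (Jun, Junb and Jund), while Jun proteins can also pair with each other or with relatives such as Atf3. Many of these genes, with *Egr1* and *Myc*, are immediate early genes, whose transcription starts within minutes of a growth factor, cytokine or stress signal without new protein synthesis, through serum response factor, CREB-type factors and MAP kinases. In the gut, Jun and Myc are known for their part in crypt cell proliferation, and Fos and Egr1 for fast responses of epithelium to injury and growth factors.

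The stretch before the transcription start is where such signals are read. RefSeq windows of the 250 bases before the start (build GRCm38.p6) were found for 7 of the 10 genes: *Fos*, *Fosb*, *Fosl2*, *Jun*, *Junb*, *Jund* and *Atf3*. The windows of *Fos* and *Junb*, which rose, and of *Jun*, which fell, are shown 5′ to 3′ because these genes moved in opposite directions. Capitals mark TGACATCA, TGACG and their reverse complements. The *Fos* window lies at chr12:85473640-85473889, plus strand, that of *Junb* at chr8:84978749-84978998, minus strand, and that of *Jun* at chr4:95052223-95052472, minus strand.
Fos: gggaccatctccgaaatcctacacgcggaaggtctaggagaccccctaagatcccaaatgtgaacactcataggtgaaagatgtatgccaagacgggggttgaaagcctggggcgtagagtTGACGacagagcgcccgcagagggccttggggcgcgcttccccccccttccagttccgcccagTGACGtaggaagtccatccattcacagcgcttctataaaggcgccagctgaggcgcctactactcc
Junb: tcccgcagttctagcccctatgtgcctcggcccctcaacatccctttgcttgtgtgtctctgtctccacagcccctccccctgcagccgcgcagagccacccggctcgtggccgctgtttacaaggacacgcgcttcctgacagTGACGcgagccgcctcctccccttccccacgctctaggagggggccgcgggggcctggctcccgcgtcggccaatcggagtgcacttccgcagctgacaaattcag
Jun: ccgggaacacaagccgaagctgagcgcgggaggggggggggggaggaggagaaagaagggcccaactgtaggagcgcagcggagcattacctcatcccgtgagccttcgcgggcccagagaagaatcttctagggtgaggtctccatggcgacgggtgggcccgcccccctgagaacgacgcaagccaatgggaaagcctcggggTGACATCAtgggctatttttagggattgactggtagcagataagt
The *Fos* window held TGACG, the core of a cAMP response element, at positions -129 and -66 from the start, counted to its first base, and TATAAA at -33. The *Junb* window held TGACG at -106. The *Jun* window held TGACATCA, an AP-1-like sequence, at -45. A CCAAT box stood at -65 in the *Jun* window and at -36 in that of *Junb*, and in 33.8% of all windows. TGACG was present in 17.8% of the 32851 windows of all genes and TGACATCA in 2.93%, on either strand. Of the 7 windows, *Fosb* and *Atf3* also held TGACG, while *Jun*, *Fosl2* and *Jund* did not. TGACTCA, the AP-1 element (4.46% of all windows), was in none of the 7. Neither were the full cAMP response element (1.55%), which contains TGACG, the E-box that Myc binds (6.02%), the Egr1 site (0.536%) and the CArG box of serum response factor (1.47%). This says only that these letters are absent from the windows.

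Of the 10 genes, 6 rose in mutant villi (*Fos*, *Myc*, *Egr1*, *Fosl1*, *Fosl2* and *Junb*), *Jun* fell, and *Atf3*, *Fosb* and *Jund* did not pass the test. The same test was passed by 19.5% of all genes, 9.39% upward and 10.1% downward. None of the 10 genes lay under the median of the probe set means. In a fit without the probe sets under that median (dim probe sets), 38.6% of the remaining 10513 genes passed. A change of at least 2-fold was seen in *Fos*, *Myc*, *Egr1* and *Fosl1*, all upward, against 1.7% of all genes that rose and 1.38% that fell this much (3.08% together). The median change over the 10 genes was 0.59 on the log2 scale, and over all genes it was 0.00500. In 9 of the 10 genes the groups had no overlap between their 3 values each, which held for 37.5% of all genes. These counts describe the 10 genes, which were listed with earlier results of these arrays known. In whole villi, a higher level per cell cannot be told apart from a larger share of the cells that make a transcript.

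**Figure D1:**
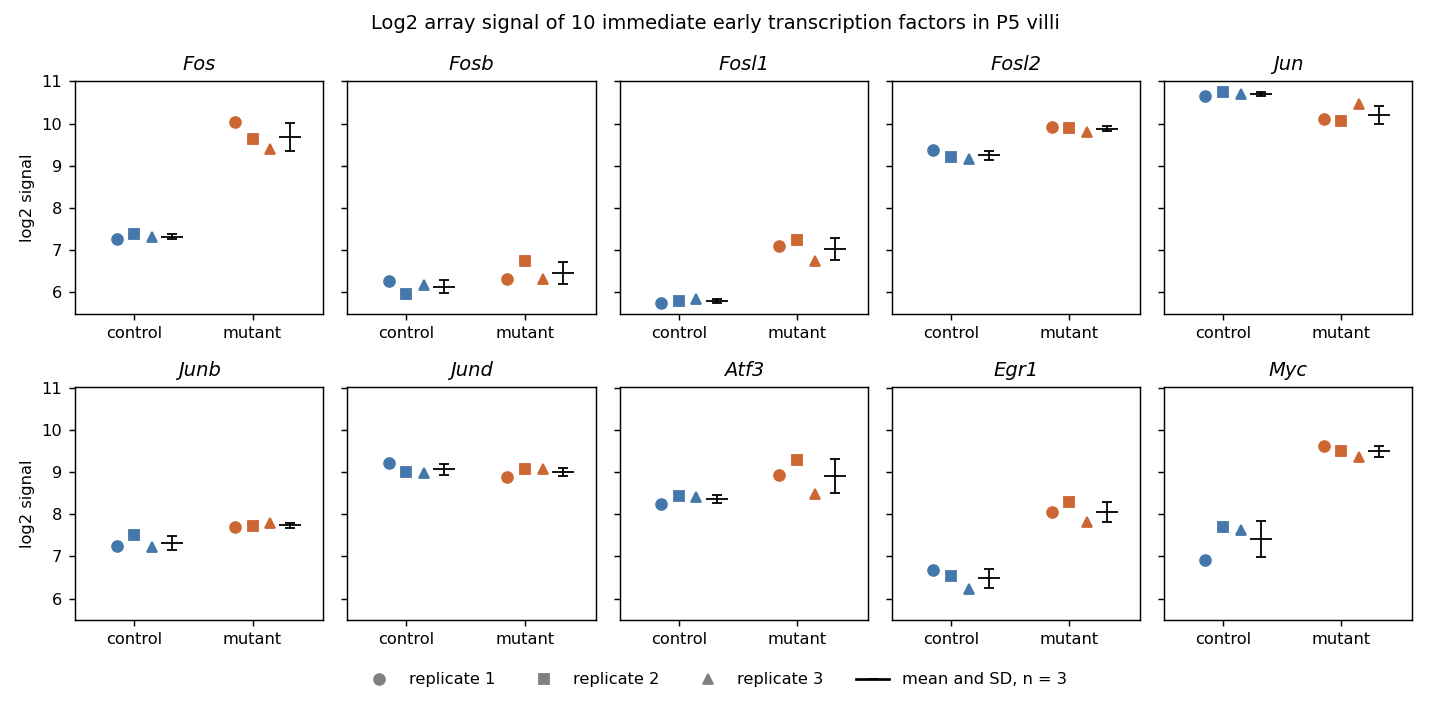
Log2 array signal (vertical axis) of the 10 genes in 3 control (blue) and 3 mutant (orange) villus samples. Points are single replicates, and the black bar beside them is the mean and SD of 3. Every mutant point of *Fos*, *Fosl1*, *Fosl2*, *Junb*, *Egr1* and *Myc* lies above every control point, and every mutant point of *Jun* lies below.

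The arrays were alike in scale, with medians from 6.24 to 6.3. *Trpm7* itself was 2.19-fold lower in mutant villi, at 8.96 to 9.11 in control and 7.79 to 8.03 in mutant replicates (adjusted p = 1.9e-04), and whether its probe set lies in the deleted part was not analysed here. Of 12 markers of villus epithelium, none lay under the median signal, 5 rose and 3 fell (66.7% passed, against 19.5% of all genes). Control replicates 2 and 3 held both *Xist* (9.82 and 9.66) and Y-linked transcripts (*Eif2s3y*, 7.71 and 7.84), whereas replicate 1 of both groups held *Xist* without them and mutant replicates 2 and 3 the Y-linked ones alone (*Xist* 4.76 and 5.26). They also differed least from each other, with an SD of the difference over probe sets of 0.184 against 0.239 to 0.280 for the other pairs within a group. Nothing in the labels says which pups a replicate came from, so n counts arrays and p-values measure only the spread between these arrays, which may be technical. For the 10 factors, values with control replicates 2 and 3 averaged or left out are given where they end a call.

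*Fos*, the Fos protein that cells induce first after most stimuli, had a higher signal in every mutant sample. Control villi had log2 signals of 7.26, 7.39 and 7.32, and mutant villi of 10.04, 9.64 and 9.39. The control values lay within 0.13 of each other and every mutant value stood at least 2 units above them. The mean rose 5.16-fold, from 7.32 ± 0.07 to 9.69 ± 0.33 (SD, n = 3 each), a difference of 2.37 with a 95% interval of 2.02 to 2.72 (adjusted p = 9.1e-05).

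*Fosl1*, which codes for Fra-1, a Fos protein linked to migrating and wound-edge epithelium, was at 5.75, 5.79 and 5.84 in control villi and at 7.11, 7.25 and 6.74 in mutant villi. It rose by 1.24 on the log2 scale, or 2.36-fold (SE 0.13, adjusted p = 6.5e-04). Its control mean of 5.79 ± 0.05 lay under the arrays' median, and since detection over background was not tested its fold is a ratio of signals, not of transcript amounts. *Fosl2*, the gene of Fra-2, had a log2 signal of 9.37, 9.21 and 9.16 in control and 9.93, 9.89 and 9.81 in mutant villi. It rose 1.55-fold, by 0.63 (SE 0.08, adjusted p = 0.0020), with no overlap between groups. With control replicates 2 and 3 left out, the difference was 0.51 (adjusted p = 0.061). *Fosb*, the Fos relative best known from neurons, had values of 6.27, 5.97 and 6.18 in control villi and 6.31, 6.75 and 6.31 in mutant villi. Replicate 2 gave both the lowest control and the highest mutant value, and the groups were only 0.04 apart at their nearest. Its difference of 0.32 (95% interval, -0.0028 to 0.64) missed the threshold (adjusted p = 0.17).

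Within the Fos family the measured changes differed in size. The change of *Fos* exceeded that of *Fosb* by 2.05 on the log2 scale, and the change of *Fosl1* exceeded that of *Fosl2* by 0.61. In both pairs the difference between the genes, taken within each array, did not overlap between groups (exact permutation test, two-sided, p = 0.1, not adjusted, the smallest that 3 arrays against 3 allow). The control means of *Fosl1* (5.79) and *Fosb* (6.14) lay under the arrays' median, which limits a comparison of sizes. With an offset of 32 on the linear scale, the change of *Fosl1* was 0.90 and that of *Fosl2* 0.60.

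The genes of the Jun partners did not move in 1 direction. *Jun*, the gene of the main Jun partner of Fos, was at 10.65, 10.76 and 10.70 in control villi and at 10.10, 10.07 and 10.46 in mutant villi. It fell by 0.49 on the log2 scale (95% interval, -0.75 to -0.23, adjusted p = 0.021), with mutant replicate 3 nearest to the controls. Its call was kept without control replicate 1 or mutant replicate 3 and lost without any 1 of the other 4 (adjusted p from 0.063 to 0.078), and also with control replicates 2 and 3 averaged (-0.48, adjusted p = 0.064). *Junb*, whose protein can hold back the activity of Jun, had values of 7.24, 7.51 and 7.22 in control and 7.70, 7.71 and 7.79 in mutant villi. It rose by 0.41 (SE 0.10, adjusted p = 0.023), a 1.33-fold difference. This call was lost without any 1 replicate other than control replicate 2 (adjusted p from 0.056 to 0.079), although the difference stayed between 0.36 and 0.50. *Jund*, the Jun gene that is read in most resting cells, was at 9.21, 9.01 and 8.97 in control and 8.89, 9.06 and 9.06 in mutant villi, and these ranges overlapped. Its difference was -0.06 (95% interval, -0.28 to 0.16, adjusted p = 0.72). The changes of *Junb* and *Jun* lay 0.90 apart, and those of *Fos* and *Jun* 2.86 apart, again without overlap between groups (exact permutation test, two-sided, p = 0.1 each).

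*Atf3*, a stress-induced partner of Jun proteins that often represses, had a log2 signal of 8.24, 8.42 and 8.40 in control villi. In mutant villi it was 8.93, 9.29 and 8.48, so that mutant replicate 3 lay only 0.06 above the highest control. The difference of 0.55 (95% interval, 0.12 to 0.97) missed the threshold (adjusted p = 0.084). Without mutant replicate 3 it was 0.76 and passed (adjusted p = 0.0093), and without any 1 of the other replicates the adjusted p lay between 0.15 and 0.19.

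*Egr1*, a zinc finger factor of the early growth response, was at 6.67, 6.53 and 6.23 in control villi and at 8.06, 8.29 and 7.81 in mutant villi. Every mutant value stood more than 1 unit above every control value. It rose 2.98-fold, from 6.48 ± 0.22 to 8.05 ± 0.24 (SD, n = 3 each), a difference of 1.58 (95% interval, 1.23 to 1.92, adjusted p = 4.6e-04). Its control values lay near the arrays' median, and with an offset of 32 on the linear scale the difference was 1.30. The other genes of its family, *Egr2* (0.32), *Egr3* (0.14) and *Egr4* (0.19), missed the threshold (adjusted p = 0.073, 0.35 and 0.13). Without mutant replicate 2, *Egr2* passed.

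*Myc*, the growth factor-responsive regulator of ribosome synthesis and cell division, was also higher in every mutant sample. Its signal was 6.91, 7.70 and 7.62 in control villi and 9.61, 9.50 and 9.36 in mutant villi. Control replicate 1 lay 0.71 below the next control, while the mutant values lay within 0.25 of each other. The mean rose 4.23-fold, from 7.41 ± 0.43 to 9.49 ± 0.13 (SD, n = 3 each), a difference of 2.08 (95% interval, 1.63 to 2.53, adjusted p = 4.5e-04). Without control replicate 1 the difference was 1.83 (adjusted p = 2.3e-04). The same replicate was the lowest control for cycling cells: the summed linear signal of 9 markers of cycling crypt cells was 2511 there, 3379 and 3384 in the other controls, and 4742 to 4910 in mutant villi. Of these 9 markers, 7 rose, and their part in the rise of *Myc* was not tested. Among the 7 was *Mki67*, which rose by 0.92 (adjusted p = 0.039). Its controls were at 7.79, 8.72 and 8.81, and its mutant values at 9.38, 9.21 and 9.49. The paper reports *Mki67* as unchanged in villi of this age, by qPCR and in its array dataset.

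**Figure D2:**
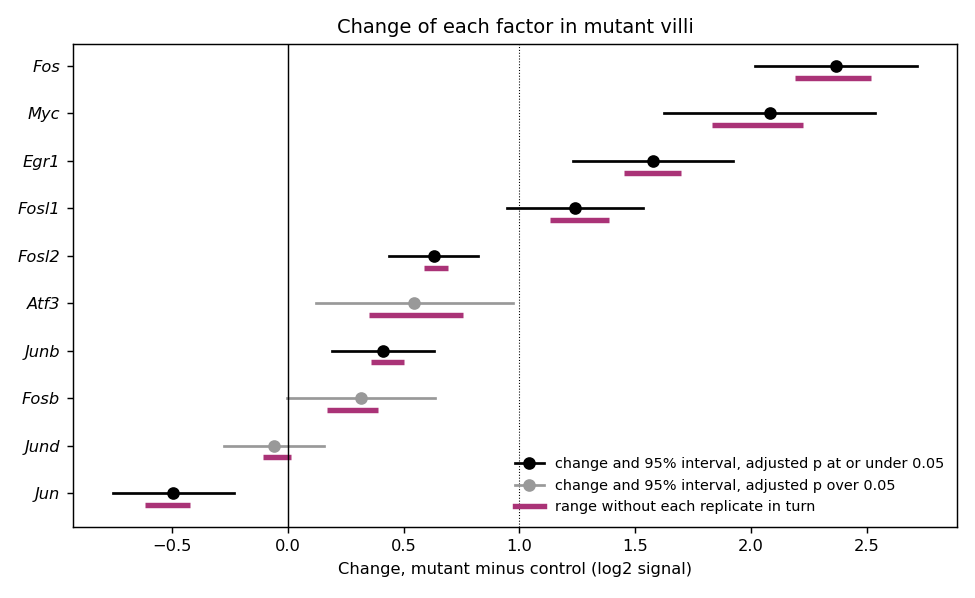
Change of each gene (horizontal axis, mutant minus control on the log2 scale) with its 95% interval from limma, in black where the adjusted p was 0.05 or less and in grey otherwise. The purple bar is the range of the change without each replicate in turn, and the dotted line marks a 2-fold rise, which the intervals of *Fos*, *Myc* and *Egr1* clear.

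In order of their change, *Fos* came first, then *Myc*, *Egr1*, *Fosl1*, *Fosl2*, *Atf3*, *Junb*, *Fosb*, *Jund* and *Jun*. With control replicates 2 and 3 left out, *Myc* (2.58) stood above *Fos* (2.43) and *Atf3* (0.66) above *Fosl2* (0.51). Of the 9 neighbouring pairs in this order, 4 differed in their change without overlap between groups, namely *Egr1* and *Fosl1*, *Fosl1* and *Fosl2*, *Fosb* and *Jund*, and *Jund* and *Jun* (exact permutation test, two-sided, p = 0.1 each, adjusted p = 0.225 over 9 pairs). The changes of the other 5 pairs differed by 0.08 to 0.50 and overlapped. In 6 of the 7 genes that passed the test, all but *Junb*, mutant replicate 3 was the mutant sample nearest to the control mean. Among 3763 genes that passed the test and had 1 nearest mutant replicate, it was mutant replicate 3 in 51.5%. The summed linear signal of 10 neutrophil markers was 354 to 374 in control villi and 831, 1243 and 3014 in mutant replicates 1, 2 and 3. Much of it came from *S100a8* and *S100a9*, without which the sum was 275 to 292 in control villi and 467, 468 and 846 in these mutant replicates. *Ly6g*, in contrast, was highest in mutant replicate 1, at 6.70 against 4.45 and 4.77 in replicates 2 and 3. Of these 10 markers 5 rose and none fell by limma (none fell at an unadjusted p under 0.05 either), so that 50% passed against 19.5% of all genes. The mean over all arrays lay under the median signal in 7 of the 10, including *Mmp8* and *Cxcr2*, which rose. *Elane*, *Mpo* and *Camp* lay under it in both groups and did not pass the test. Of 8 fibroblast markers, 3 rose (*Dcn*, *Pdgfra* and *Vim*), so that 37.5% passed. The sum of the 8 was 2158 to 2672 in control and 2934 to 3646 in mutant villi. Of 11 immune markers other than those of neutrophils only *Adgre1* changed, falling by 0.54 on the log2 scale, with a summed linear signal of 2531 to 2890 in control and 2618 to 2764 in mutant villi. Of 6 endothelial markers *Tek* alone changed and fell, and none of 6 smooth muscle markers passed the test (none at an unadjusted p under 0.05). The part of neutrophils and fibroblasts in the changes of the 10 genes was not tested.

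The genes whose profile over the 6 arrays was nearest to a member were found by the root mean square distance of centred log2 values, for the 4 genes with a 2-fold change. Nearest to *Fos* were *Mgst2*, a microsomal glutathione transferase (distance 0.0991), *Tm4sf4* (0.115) and *Anxa1*, the gene of annexin A1 (0.131). Nearest to *Fosl1* were *Stk17b* (0.0555), *Ddx60* (0.0582) and *Gsn*, the gene of the actin-severing protein gelsolin (0.0810). *Egr1* had *Tmc7* (0.105), *Zfp37* (0.136) and *Emp1* (0.140) as its nearest genes, and *Myc* had *Nipal1*, a magnesium transporter of the NIPA family (0.162), *Gm11545* (0.195) and *Mpzl2* (0.195). All 12 rose, by 1.15 to 2.42 on the log2 scale. The distance includes the difference between groups, so a rise close to that of the member follows from how these genes were picked.

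Other immediate early genes rose with these factors. Of 31 such genes outside the 10, 18 rose and 13 missed the limma threshold, with none that fell (1 fell at an unadjusted p under 0.05). The share that passed was 58.1%, against 19.5% of all genes in either direction and 38.6% in the fit without dim probe sets. Their median change was 0.46. *Dusp1*, a phosphatase that switches off MAP kinases, was at 8.31, 8.15 and 8.32 in control and 10.04, 9.73 and 10.07 in mutant villi, a 3.22-fold rise (adjusted p = 9.1e-05). *Plk3*, a stress-responsive kinase, rose by 1.66 (adjusted p = 6.6e-04), and *Ccn1*, a secreted matrix protein, by 1.58 (adjusted p = 2.0e-04). *Klf6*, a Kruppel-like factor, had control values of 9.70, 9.67 and 9.70 and mutant values of 11.38, 11.36 and 11.07, a 2.99-fold rise (adjusted p = 7.5e-05). These 4 were the ones that rose at least 2-fold. *Ier2*, which responds within minutes to serum in culture, differed by 0.28 and missed the threshold (adjusted p = 0.056). With control replicates 2 and 3 left out, 6 of the 31 passed the test, against 6.67% of all genes in that fit.

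Of 21 other bZIP proteins that pair or compete with Fos and Jun, 4 rose, 1 fell and 16 did not pass the test, with a median change of 0.06. The share that passed, 23.8%, was close to the 19.5% of all genes. *Mafk*, a small Maf protein, rose by 0.57 (adjusted p = 0.0051), *Jdp2*, a repressor that pairs with Jun, by 0.41 (adjusted p = 0.0083) and *Atf4*, the factor of the integrated stress response, by 0.42 (adjusted p = 0.029). *Ddit3* was the fourth that rose. *Maf*, a large Maf protein, had a mean of 10.67 ± 0.09 in control and 9.78 ± 0.38 in mutant villi (SD, n = 3 each) and fell by 0.88 (adjusted p = 0.012). *Atf4* lost its call without any 1 of control replicates 1 and 2 and mutant replicates 1 and 2 (adjusted p up to 0.10), and without control replicate 2, mutant replicate 1 or mutant replicate 2 the list held 3 calls. *Nfe2l2*, the gene of NRF2, differed by -0.02 (adjusted p = 0.89).

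Of 17 genes of the pathway that acts on immediate early promoters and on Jun and Fos proteins, 3 rose and 3 fell. The other 11 did not pass the test, so that 35.3% passed. This was above the 19.5% of all genes but not above the 38.6% in the fit without dim probe sets. Of the 17 genes, 3 lay under the median signal. Both main kinases of the JNK group, which phosphorylate Jun, changed in opposite directions. *Mapk8*, the gene of JNK1, was at 8.30, 8.32 and 8.41 in control villi and 9.22, 9.24 and 9.09 in mutant villi, a rise of 0.84 (SE 0.08, adjusted p = 4.0e-04). *Mapk9*, the gene of JNK2, was at 8.52, 8.66 and 8.69 in control villi and 7.73, 7.60 and 7.74 in mutant villi, and fell by 0.93 on the log2 scale (SE 0.08, adjusted p = 3.1e-04). The groups did not overlap in either gene, and their changes lay 1.77 apart (exact permutation test, two-sided, p = 0.1). *Srf*, the gene of serum response factor, rose by 0.50 (adjusted p = 0.0039) and *Map2k1*, the gene of the ERK kinase MEK1, by 0.39 (adjusted p = 0.0093). *Rps6ka3* fell by 0.35 and *Rps6ka5* fell by 0.34, both kinases downstream of ERK, and each lost its call without 3 of the 6 replicates in turn (adjusted p up to 0.071). The ternary complex factors *Elk1*, *Elk3* and *Elk4* did not pass the test (changes of -0.18, -0.25 and 0.03).

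**Figure D3:**
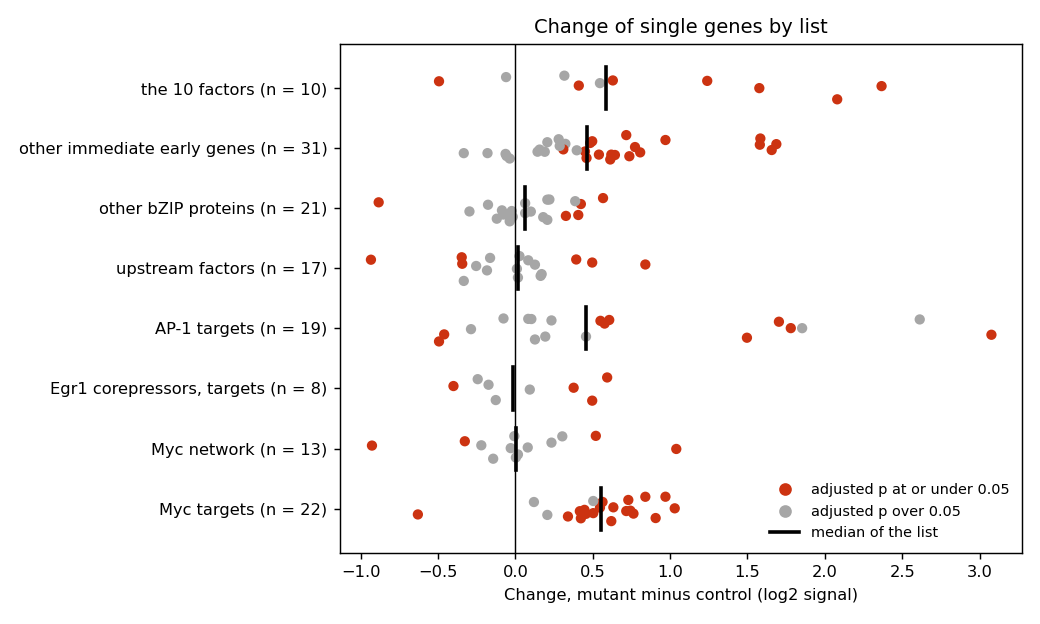
Change of single genes (horizontal axis, mutant minus control on the log2 scale) in the 10 factors and in 7 lists, with the number of measured genes beside each name. Red points passed the test at an adjusted p of 0.05, grey points did not, and the black line is the median of the list, at 0.59 for the 10 factors, 0.56 for the Myc targets and 0.46 for both the other immediate early genes and the AP-1 targets, with the other 4 lists between -0.02 and 0.06.

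Among 19 textbook targets of AP-1, 7 rose, 2 fell and 10 did not pass the test, with a median change of 0.46. The share that passed was 47.4%, against 19.5% of all genes and 38.6% in the fit without dim probe sets. *Plaur*, the urokinase receptor, was at 6.83, 6.55 and 6.41 in control villi and 10.05, 9.76 and 9.21 in mutant villi. It rose 8.44-fold, a difference of 3.08 (SE 0.21, adjusted p = 1.1e-04). *Cd44*, a hyaluronan receptor, rose 3.43-fold and was uniform in mutant villi, at 8.58, 8.55 and 8.55 against 6.63, 6.83 and 6.88 in control villi (adjusted p = 3.1e-05). *Ptgs2*, the gene of cyclooxygenase-2, rose 3.26-fold (adjusted p = 0.0013) and *Hbegf*, a ligand of the EGF receptor, 2.82-fold (adjusted p = 7.8e-04). *Plau*, *Sphk1* and *Gja1* were the others that rose. The matrix metalloproteinase genes of this list did not rise: *Mmp13* (0.13), *Mmp3* (0.10) and *Mmp9* (-0.29) did not pass the test. *Mmp3* (mean 4.57 in control and 4.67 in mutant villi) lay under the arrays' median and *Mmp13* (6.20 and 6.33) near it. This limits how far their changes can be read. *Mmp10* fell by 0.49 on the log2 scale (adjusted p = 0.026), a call that was kept only without mutant replicate 1 (adjusted p up to 0.095 without any other). *Mmp8*, counted with the neutrophil markers above, rose by 2.11 (adjusted p = 0.0042). *Vegfa*, the vascular growth factor, fell by 0.46 (adjusted p = 0.0084).

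A pair of these targets, chosen after their values were seen, differed between mutant replicates more than between groups. *Hmox1*, the gene of heme oxygenase-1, was at 12.91 and 12.21 in mutant replicates 1 and 2 but at 9.22 in mutant replicate 3, close to the control values of 8.97, 8.73 and 8.80. Its difference of 2.61 missed the threshold (adjusted p = 0.065), and without mutant replicate 3 it was 3.73 (adjusted p = 1.3e-04). *Cxcl2*, a chemokine that attracts neutrophils, was instead highest in mutant replicate 3, at 8.47 against 6.27 and 5.77, with control values of 4.96, 5.30 and 4.69 (difference 1.85, adjusted p = 0.078). It passed when mutant replicate 2 was left out, at 2.39 (adjusted p = 0.045), as it did at 1.04 when mutant replicate 3 was (adjusted p = 0.019). The neutrophil markers above had their highest sum in that replicate too, with and without *S100a8* and *S100a9*, whereas *Ly6g* did not. For the target list as a whole, the summed linear signal was 3667 to 4094 in control villi and 13204, 9817 and 5650 in mutant replicates 1, 2 and 3. The spread between the mutant sums was mostly that of *Hmox1*: without it the sums were 3166 to 3669 in control villi and 5507, 5080 and 5054 in mutant replicates 1, 2 and 3.

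**Figure D4:**
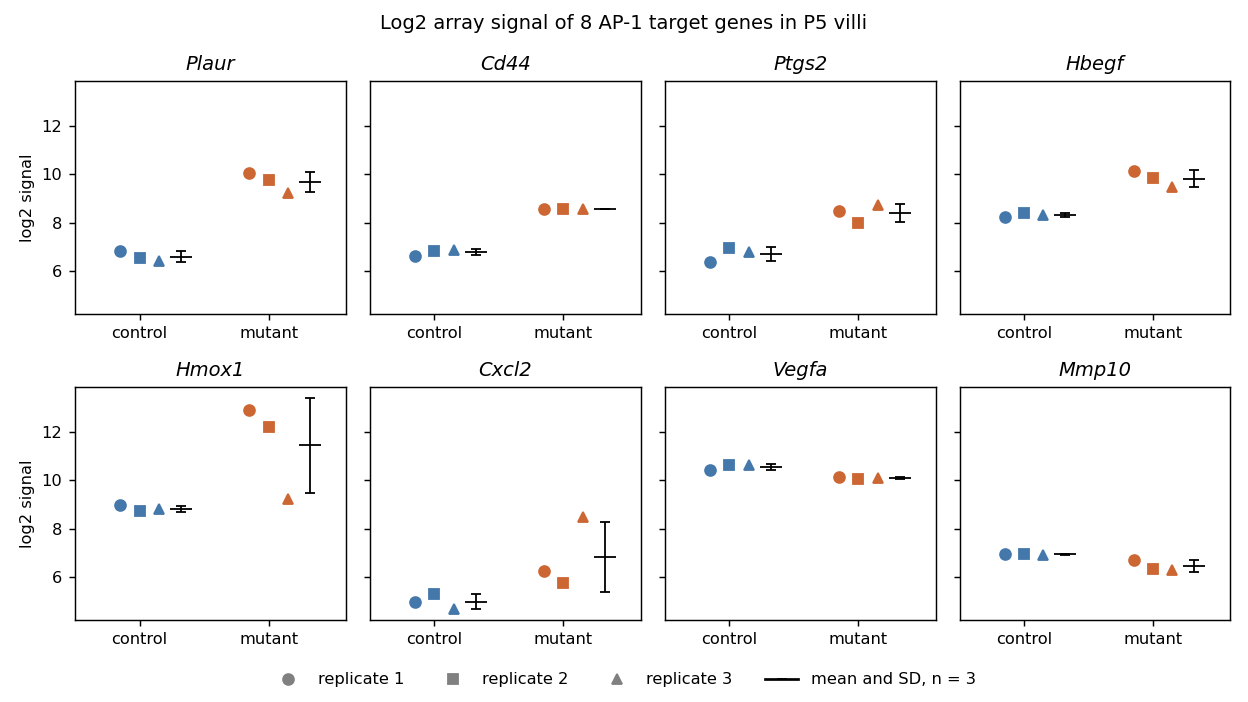
Log2 array signal (vertical axis) of 8 textbook AP-1 targets in 3 control (blue) and 3 mutant (orange) villus samples. Points are single replicates and black bars the mean and SD of 3. *Plaur*, *Cd44*, *Ptgs2* and *Hbegf* are higher in every mutant sample, *Hmox1* and *Cxcl2* differ by several units between mutant replicates, and *Vegfa* and *Mmp10* are lower in every mutant sample.

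Of 8 corepressors and textbook targets of Egr1, 3 rose and *Pdgfb* fell, with a median change of -0.02 on the log2 scale. The share that passed was 50%, against 19.5% of all genes and 38.6% in the fit without dim probe sets. Both corepressors rose: *Nab1* by 0.50 (adjusted p = 0.0042) and *Nab2* by 0.38 (adjusted p = 0.021). *F3*, the gene of tissue factor, rose by 0.59 (adjusted p = 0.014) and *Pdgfb*, a growth factor chain, fell by 0.40 (adjusted p = 0.040). Of these 4, *Nab1* alone kept its call without each replicate in turn. *Nab2* and *Pdgfb* each lost it without 5 of the 6, *Nab2* keeping it only without mutant replicate 1 and *Pdgfb* only without control replicate 2, and *F3* lost it without mutant replicate 1 or 2. The list then held 1 call without mutant replicate 2 and 2 calls without control replicate 1 or 3 or mutant replicate 1 or 3.

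In the Myc network, 2 of 13 genes rose, 2 fell and 9 did not pass the test. The share that passed, 30.8%, was above the 19.5% of all genes but not above the 38.6% in the fit without dim probe sets. Of the 13 genes, 1 lay under the median signal. *Max*, the obligate partner of Myc, had control values of 10.53, 10.52 and 10.52 and mutant values of 11.12, 11.04 and 10.97, a rise of 0.52 (adjusted p = 0.0025). The proteins that compete with Myc for Max went both ways. *Mxd1*, which is read in differentiating epithelium, rose by 1.04 (adjusted p = 1.9e-04), whereas *Mxi1*, at 9.72 ± 0.04 in control and 8.79 ± 0.15 in mutant villi (SD, n = 3 each), fell by 0.93 (adjusted p = 5.2e-04). *Mga* fell by 0.33 (adjusted p = 0.033) and kept its call only when mutant replicate 1 was the one left out (adjusted p up to 0.10 without any of the others). *Mycn* (0.23) and *Mycl* (-0.01) did not pass the test.

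Of 22 textbook Myc targets, 18 rose, 1 fell and 3 did not pass the test. The share that passed was 86.4%, against 19.5% of all genes and 38.6% in the fit without dim probe sets. Their median change was 0.56 on the log2 scale. *Ccnd2*, a D-type cyclin, rose by 1.03 (adjusted p = 0.0025), *Dkc1* and *Nop56*, which code for proteins of small nucleolar ribonucleoproteins, by 0.97 (adjusted p = 0.0061) and 0.91 (adjusted p = 0.013), and *Srm*, the gene of spermidine synthase, by 0.84 (adjusted p = 0.0013). *Cdk4*, a kinase of the cell cycle, was the 1 that fell, by 0.63 on the log2 scale (adjusted p = 0.0014). *Dkc1* was at 7.06 in control replicate 1 and at 7.72 and 7.65 in the others, against 8.41 to 8.52 in mutant villi, so that the low control was the same as for *Myc*. Without control replicate 1, the rise of *Dkc1* was 0.76 and that of *Nop56* 0.67, and both passed the test. The markers of cycling crypt cells given above moved with this list, and their part in it was not tested.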

How the data were processed

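Villi of control and mutant littermates were profiled on 3 arrays per group. Per the labels, total RNA was labelled with biotin for Affymetrix whole-transcript arrays. The authors deposited 1 log2 signal per probe set and array, rounded to 0.01, for 30177 probe sets; how they were background-corrected, summarised and normalized is not stated in the sources used here. The number of arrays limits the precision. The platform annotation gave 21789 probe sets 1 symbol, 1621 several and 6767 none; symbols were updated through Entrez IDs in RefSeq. Where a gene had several probe sets, the one with the highest mean stood for it. Groups were compared with limma 3.58.1 (lmFit and eBayes; prior of 3.92 degrees of freedom) in R 4.3.3, and p-values were adjusted by Benjamini-Hochberg over the 30177 probe sets. Lists were described by counts and medians. Besides the 10 members, up to 4 members past the test with the largest change were named per list, with the 3 nearest genes of each member changed 2-fold. Genes outside this rule (*Egr2*, *Egr3*, *Egr4*, *Ier2*, *Hmox1*, *Cxcl2* and others) were chosen after their values were seen. The members and lists were chosen with earlier results of these data known. The fit was tested on simulated data. Promoter windows were taken from RefSeq (GRCm38.p6) and searched on both strands; tables and figures used pandas 2.3.3 and matplotlib 3.10.9. Of 141 genes in the 7 lists, 10 had no probe set of a single symbol. Columns of fold changes and p-values in the paper's datasets were not used.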

Additional observations from a re-analysis of the deposited data

How the results depend on the processing

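*Fos*, *Myc*, *Egr1* and *Fosl1* passed the test in the same direction under every alternative run, which were quantile normalization, centring on the median, array weights, robust estimation with a trend, the replicate number as a block, leaving out dim probe sets or those without a single symbol, an offset of 32 on the linear scale, control replicates 2 and 3 averaged or left out, and each replicate left out. Leaving out control replicates 2 and 3 was chosen after seeing the data and leaves 1 control, assumed to vary like the mutant arrays. It gave 1329 calls over all genes against 3891, and 4 calls among the 10 factors. *Fosl2* was then at 0.51 (adjusted p = 0.061), *Junb* at 0.49 (adjusted p = 0.061) and *Jun* at -0.44 (adjusted p = 0.24), and *Jun* was at -0.48 with both averaged. The list counts with both left out were 0 of 21 for other bZIP proteins, 6 of 31 for other immediate early genes, 2 of 17 for upstream factors, 1 of 8 for Egr1 corepressors and targets and 2 of 13 for the Myc network.

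Without each replicate in turn, *Jun* ran from -0.62 to -0.42, *Junb* from 0.36 to 0.50 and *Atf3* from 0.35 to 0.76, and the counts ran from 5 to 7 for the 10 factors, 3 to 5 for other bZIP proteins and 1 to 3 for Egr1 corepressors and targets. Over all genes, 2566 passed without mutant replicate 2 and 2584 without control replicate 2, against 3891. A change of at least 2-fold left 4 of the 10 factors, 4 other immediate early genes, 4 AP-1 targets, 1 gene of the Myc network, 1 Myc target, and 0 upstream factors, other bZIP proteins and Egr1 genes. Over all genes, 3.08% passed the test with a change of this size. At 1.5-fold, the counts were 1 for other bZIP proteins, 2 for upstream factors, 5 for AP-1 targets, 1 for Egr1 genes, 2 for the Myc network and 11 for Myc targets. The share of all genes at 1.5-fold is not given here, so these counts cannot be set against it.

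The replicate numbers are not known to pair the samples. Deviations from the group means correlated at 0.174, 0.0390 and 0.119 for the 3 same-numbered pairs. With the replicate number as a block, 7 of the 10 factors passed as before and *Fos* had an adjusted p of 6.0e-04. Among the other genes named, *Mga* lost its call (adjusted p = 0.056) and *Hmox1* gained one (adjusted p = 0.042). Detection over background was not tested, so signals near or under the arrays' median, as for *Fosl1*, *Fosb* and the controls of *Egr1*, limit how far their ratios can be read.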
